A study of Homo sapiens with 22 samples.

Results

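The intergenic transcribed intervals are the stretches between annotated RefSeq genes that the deposited per-library tables count separately for each strand. An interval entered this report when its reads summed over 12 libraries reached 500, and 1414 of the 33452 intervals listed did so. They lay at 1354 distinct loci, 60 of which were counted on both strands, and they held 2700356 reads, 65.4% of all intergenic reads. Each interval is named by the gene on its left and the gene on its right, in the order of the hg19 (GRCh37) genome. The reads that chose the members came mostly from the deeper immunoprecipitated libraries: 1076 members reached 500 reads in those libraries alone and 147 in the inputs alone. The choice therefore favours intervals recovered with the protein, and levels and counts over the members are given as a description.

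The study measured RNA bound by PSF, the nuclear RNA-binding protein encoded by SFPQ, in 3 human prostate cancer lines. LNCaP is an androgen-dependent line with an active androgen receptor, 22Rv1 is a line from a xenograft that relapsed after castration, and LTAD, a name the labels do not spell out, is a prostate cancer line kept in medium with serum stripped of steroids. Each line received ethanol vehicle or 10 nM dihydrotestosterone (DHT), the potent androgen, for 24 h after growth in stripped serum, and each culture gave 1 input library and 1 PSF RNA immunoprecipitation (PSF-RIP) library. This makes 12 libraries with 1 library per line, treatment and assay. No library of a non-specific antibody was analysed here, so PSF-RIP was compared with input alone. The series also holds PSF CLIP peak lists from LNCaP, where RNA is crosslinked to the protein with ultraviolet light before precipitation, and 4 of these lists were used. Each line stands for 1 model, its vehicle and DHT libraries are its only samples, and a p-value reflects spread among these 12 libraries, which may be technical.

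PSF works in the nucleus in splicing, transcript release and the paraspeckle, a body built on the NEAT1 noncoding RNA, and it is known in prostate cancer cells as a partner of androgen-regulated noncoding RNAs. Reads between annotated genes can come from several sources. RNA polymerase II often transcribes past the end of a gene, and many promoters fire in both directions, so an interval can hold read-through RNA from the gene on its 5′ side or divergent RNA from the opposite strand. An interval can also hold a gene that the RefSeq set lacks, such as RN7SK, the nuclear RNA that holds the elongation factor P-TEFb inactive, RN7SL2, the RNA core of the signal recognition particle in the cytoplasm, or a copy of mitochondrial DNA inserted into a chromosome.

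The sequences that separate these sources are shown first, because several of the most read intervals turned out to carry copies of known RNAs. The window below is the RN7SK gene inside GSTA4-ICK (chr6:52860418-52860537, plus strand), followed by the matching windows in FOXN3-EFCAB11 (chr14:90178855-90178974, plus strand), UBE2NL-SLITRK2 (chrX:144138628-144138747, plus strand) and STAC-TRANK1 (chr3:36726531-36726650, plus strand). Capitals mark bases that differ from RN7SK, with 1, 11 and 17 differences in the 120 bases shown.
RN7SK: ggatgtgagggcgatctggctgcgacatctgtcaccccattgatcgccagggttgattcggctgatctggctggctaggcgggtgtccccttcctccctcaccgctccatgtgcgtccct
FOXN3-EFCAB11: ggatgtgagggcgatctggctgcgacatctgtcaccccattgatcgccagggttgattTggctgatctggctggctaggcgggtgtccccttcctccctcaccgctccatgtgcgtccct
UBE2NL-SLITRK2: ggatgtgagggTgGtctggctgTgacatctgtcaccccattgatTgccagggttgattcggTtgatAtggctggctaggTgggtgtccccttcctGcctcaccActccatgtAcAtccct
STAC-TRANK1: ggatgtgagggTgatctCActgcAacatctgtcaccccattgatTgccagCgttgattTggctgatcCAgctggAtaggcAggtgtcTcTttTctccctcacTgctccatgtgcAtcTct

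The next set is a pair of neighbouring intervals on chromosome 1 that match the mitochondrial genome, shown at chr1:564461-564580 and chr1:567794-567913, both on the plus strand. Capitals mark the 1 and 2 bases that differ from the mitochondrial sequence, so reads from the mitochondrion and from the chromosome can be told apart only where they cover such a base.
LOC729737-LOC100133331, upstream interval: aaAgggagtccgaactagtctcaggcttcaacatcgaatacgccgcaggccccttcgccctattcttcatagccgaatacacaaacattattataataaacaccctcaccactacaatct
LOC729737-LOC100133331, downstream interval: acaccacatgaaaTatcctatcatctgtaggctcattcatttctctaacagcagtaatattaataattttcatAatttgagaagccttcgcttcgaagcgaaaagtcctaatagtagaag

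The last set comes from the middle of stretches that 2, 3 and 4 CLIP lists shared in intervals named later: ZBTB16-NNMT (chr11:114150065-114150214, plus strand), ELK4-SLC45A3 (chr1:205607884-205608033, minus strand) and KLHL1-DACH1 (chr13:70990364-70990513, plus strand). Each is read on the strand of its interval, since the peak lists carry no strand, and capitals mark runs of 8 or more purines (A or G).
ZBTB16-NNMT: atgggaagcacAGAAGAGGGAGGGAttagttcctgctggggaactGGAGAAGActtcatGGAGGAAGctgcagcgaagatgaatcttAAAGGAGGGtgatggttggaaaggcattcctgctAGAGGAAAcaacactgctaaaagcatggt
ELK4-SLC45A3: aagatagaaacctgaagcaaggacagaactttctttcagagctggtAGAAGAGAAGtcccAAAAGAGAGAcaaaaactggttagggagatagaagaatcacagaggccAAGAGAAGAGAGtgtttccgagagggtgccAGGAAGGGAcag
KLHL1-DACH1: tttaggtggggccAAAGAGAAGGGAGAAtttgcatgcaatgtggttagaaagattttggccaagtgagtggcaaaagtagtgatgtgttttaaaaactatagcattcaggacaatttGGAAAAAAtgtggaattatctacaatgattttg

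Mapped reads numbered 1073228 to 3014049 in the 6 inputs and 4641602 to 10439461 in the 6 PSF-RIP libraries. Reads on mitochondrial genes took 10.3 to 21.8% of the inputs and 0.259 to 0.872% of the PSF-RIP libraries. All 6 luminal prostate markers were detected in the inputs, at a summed 1170 to 5070 CPM (counts per megaread of TMM-scaled library size), while basal markers summed to 0 to 1.43, fibroblast markers to 6.07 to 16.4 and leukocyte markers to 3.31 to 36.5 CPM. SFPQ mRNA itself was higher in PSF-RIP by 1.04 on the log2 scale (SE 0.08, edgeR adjusted p = 1.46e-09), and FKBP5, a classical androgen target, was higher with DHT in input by 3.15 (SE 0.23, edgeR adjusted p = 0.00012). KLK3, another androgen target, did not pass for DHT. It stood at 1.85 in input (SE 0.64, edgeR adjusted p = 0.31) and 1.74 in PSF-RIP (SE 0.54, edgeR adjusted p = 0.115).

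The members ranged from 2 to 21383734 bases, with a median of 52250. By length, 234 were under 10 kb, 686 from 10 to 100 kb and 494 at least 100 kb. On their 5′ side, 802 began within 5 kb of the end of a gene on the same strand and are called sense downstream. Another 460 began within 5 kb of a gene on the opposite strand and are called divergent, and the remaining members had no gene within 5 kb. A gene of GENCODE release 44 lay wholly inside 875 members on the same strand, and 81 overlapped no GENCODE gene on that strand. The median member held 857 reads, 168 from inputs and 688.5 from PSF-RIP, and 296 members had under 100 input reads. The members at the threshold of 500 reads were RNF4-FAM193A, TNFRSF10C-TNFRSF10D and IGSF1-FIRRE, and the intervals with 499 reads were GMEB1-YTHDF2, ZNF99-ZNF728 and RBM39-PHF20.

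Of the 1414 members, 1368 passed the expression filter and were tested. The 46 that did not had 502 to 2012 reads, and 43 of them drew at least 90% of their reads from a single line, 40 from 22Rv1, 2 from LNCaP and 1 from LTAD. Among all members, 55 drew at least 90% of their reads from a single line, and 40 had no input read in at least 1 line.

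The most read interval was GSTA4-ICK (chr6:52860179-52866097, plus strand), which holds RN7SK. Its input levels in the order LNCaP vehicle, LNCaP DHT, 22Rv1 vehicle, 22Rv1 DHT, LTAD vehicle and LTAD DHT were 71000, 53400, 123000, 101000, 42300 and 36100 CPM. In PSF-RIP they were 1270, 647, 1380, 1670, 477 and 426 CPM. The 2 sets did not overlap, and 22Rv1 was the highest line in both. Per length it stood at 12000 CPM per kb in the inputs on average, against 137 for WDR74-SNHG1 (chr11:62607629-62619459, minus strand), which holds the spliceosomal RNA gene RNU2-2P, 142 for RPS29-LRR1 (chr14:50053135-50065414, plus strand) and 109 for NEMF-ARF6 (chr14:50319922-50359735, minus strand). MIR3687-2-TEKT4P2 (chr21:9826264-9907188, plus strand), the second in total reads, stood at 45.1 CPM per kb. In contrast, KLHL1-DACH1 (chr13:70713886-71589272, plus strand) is a gene-poor interval of 875387 bases between the actin-binding KLHL1 and the transcription factor DACH1. Also among the 10 most read intervals, it stood at 0.488 CPM per kb in input and 0.448 in PSF-RIP, averaged over all 3 lines.

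**Figure D1:**
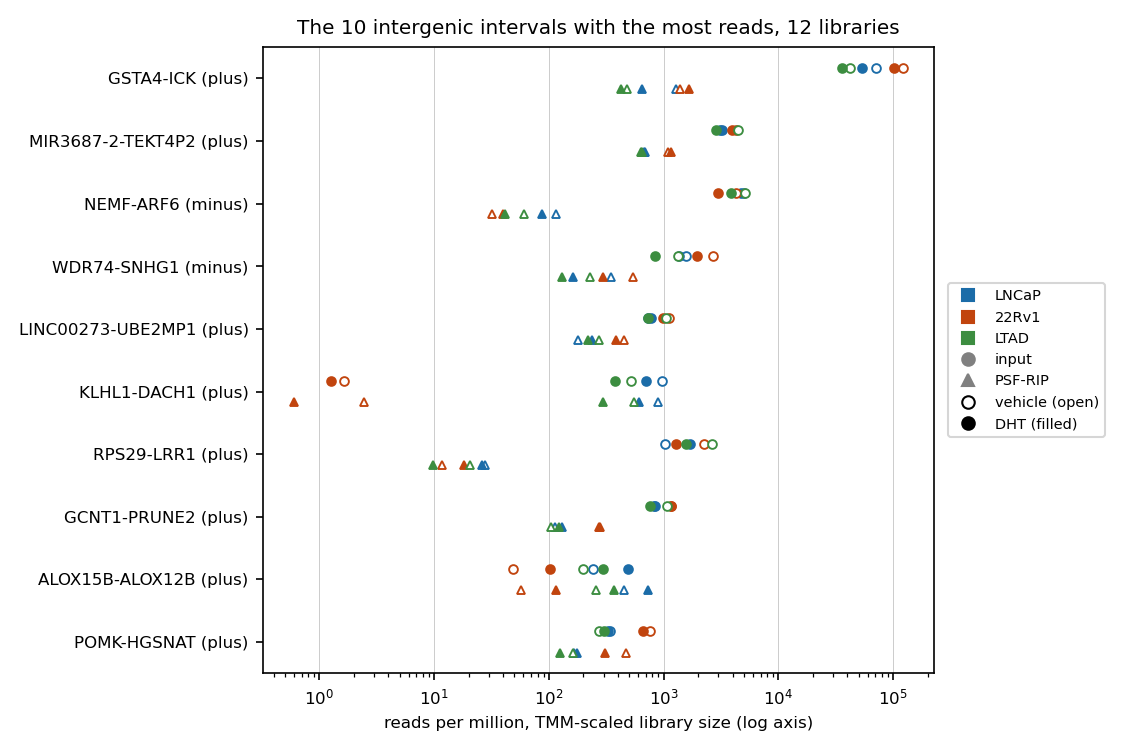
Level of the 10 most read intergenic intervals in each of the 12 libraries, in CPM on a log axis. Circles are inputs, triangles PSF-RIP, open symbols vehicle, filled symbols DHT, and colour gives the line. For GSTA4-ICK the 6 inputs sit between 36100 and 123000 CPM and the 6 PSF-RIP libraries between 426 and 1670 CPM, while KLHL1-DACH1 in 22Rv1 sits at 1.65 and 1.27 CPM in input and 2.47 and 0.597 CPM in PSF-RIP.

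Member intervals took a smaller share of PSF-RIP reads than of input reads. They held 9.78% ± 1.29 (SD, n = 6) of mapped reads in input, from 7.98 to 11.6%, and 3.61% ± 0.142 (SD, n = 6) in PSF-RIP, from 3.44 to 3.78%. The share was lower in PSF-RIP in 6 of 6 pairs, by 6.17 percentage points on average, a description because the same reads chose the members. The interval with RN7SK alone held 3.19 to 7.38% of input reads and 0.0442 to 0.142% of PSF-RIP reads. Without it, an alternative chosen after its values were seen, the shares were 4.69% ± 0.474 and 3.52% ± 0.146 (SD, n = 6 each), lower by 1.17 percentage points in PSF-RIP. The share of mitochondrial gene reads moves with this difference, and with those reads taken out of the total the shares were 11.5% ± 2.13 and 3.63% ± 0.147 (SD, n = 6 each).

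The first comparison asked which intervals PSF-RIP recovered more or less than input. Between the assays, 334 of the 1368 tested members were higher in PSF-RIP and 427 lower at an adjusted p under 0.05 by edgeR's quasi-likelihood test, adjusted over 16098 genes and intervals. The members called made up 55.6%, beside 57.3% of all features tested. Among all features, 30.1% were higher and 27.2% lower. The median difference was -0.04 on the log2 scale for the members, 0.05 for all features and 0.12 for genes. Of the called members, 227 higher and 325 lower had the same sign in all 6 pairs. The balance of directions depends on the scaling: with no expression filter it was, for the same members, 502 higher and 271 lower, and with intergenic intervals fitted alone 516 and 264, which moved the members' median to 0.22. Under the main scaling, 80 called members were higher by more than 1 log2 unit, 160 were lower by more than 1, and 27 were lower by more than 3. The same counts over all features and under the other scalings are not given, so these describe the members alone. A member with under 500 reads in one assay could enter through the other, and the differences of such members between the assays are given with their SE as a description.

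**Figure D2:**
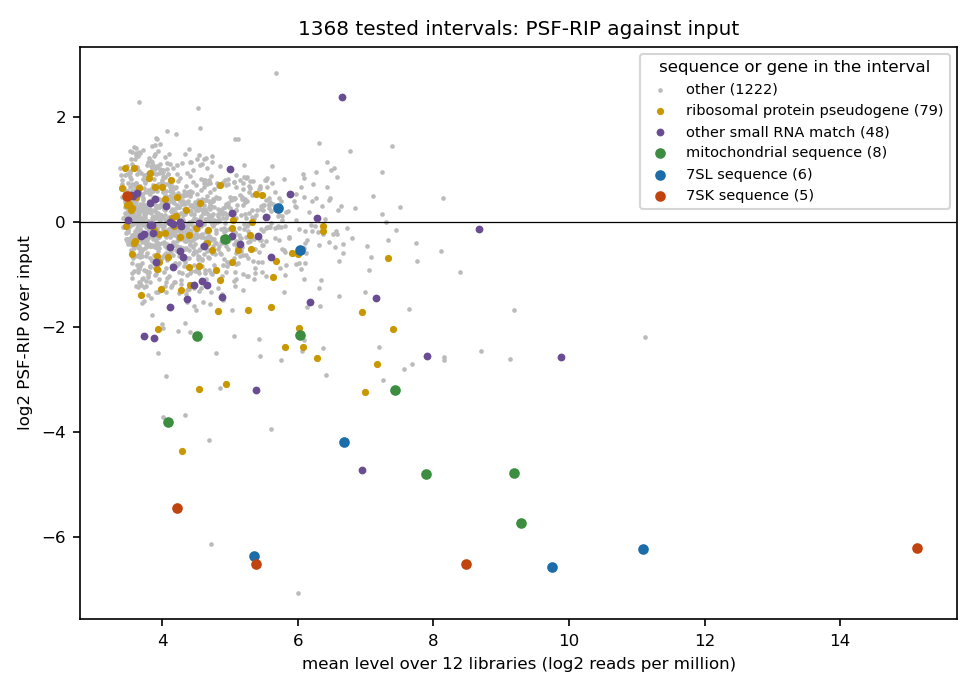
Difference between PSF-RIP and input (log2, vertical) against the mean level of each of the 1368 tested member intervals (horizontal, log2 CPM over 12 libraries), with colours for the RNA that the interval matches. Of the 5 intervals that match 7SK and the 6 that match 7SL, all lie between -6.56 and -4.18 except those at 0.50, 0.26 and -0.54.

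Of the 27 members lower by more than 3 log2 units, 4 match 7SK, 4 match 7SL, 5 are mitochondrial in sequence and 4 hold a ribosomal protein pseudogene. Of 5 intervals with a match to RN7SK, 4 fell in PSF-RIP and 1 rose, with a median of -6.22. GSTA4-ICK fell by 6.22 on the log2 scale (SE 0.17, edgeR adjusted p = 1.27e-16), with pair values from -6.47 to -5.81 on that scale. The near-identical copy in FOXN3-EFCAB11 (chr14:90085495-90261335, plus strand), whose match to RN7SK is 98.3% identical, had input levels of 628, 458, 1290, 1280, 417 and 309 CPM and PSF-RIP levels of 8.29, 5.94, 14, 15.5, 3.29 and 2.77 CPM. The sets did not overlap, and the interval fell by 6.51 (SE 0.13). Of the more diverged copies printed above, STAC-TRANK1 (88.2% identity) stood at -6.51 (SE 0.17) and UBE2NL-SLITRK2 (91.7%) at -5.44 (SE 0.2). The exception was B4GALT6-SLC25A52, which holds a 90% match but only 72 input reads against 459 PSF-RIP reads, and rose by 0.50 (SE 0.19). Reads of near-identical copies can be placed at either copy, so the 4 intervals cannot be taken as independent measurements.

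Of 6 intervals that match RN7SL2, 5 fell and none rose, with a median of -5.21. NEMF-ARF6, which holds RN7SL2 and RN7SL3, had 4760, 5030, 4250, 3000, 5100 and 3850 CPM in the inputs and 116, 87.3, 31.8, 39.8, 60.5 and 41.3 CPM in PSF-RIP. No PSF-RIP library reached an input level, and the interval fell by 6.23 (SE 0.18, edgeR adjusted p = 2.59e-16). The difference was -6.56 for RPS29-LRR1 (98.7% identity), -6.35 for SIDT1-USF3 (94.9%), -4.18 for KLHL9-MTAP (93.9%) and -0.54 for MID1IP1-BCOR (88.3%). DUSP26-UNC5D, with the least similar match at 85%, did not pass (0.26, edgeR adjusted p = 0.129).

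Matches to the spliceosomal RNAs U1, U2, U4, U5 and U6 covered a wide range. PXN-SIRT4 (chr12:120703575-120740123, minus strand), which holds the U4 genes RNU4-1 and RNU4-2, fell by 4.73 (SE 0.19). Both U2 matches fell, WDR74-SNHG1 by 2.58 and RNGTT-PNRC1 by 2.56, and both U5 matches fell. For U1, 3 of 6 matches fell and 1 rose, with a median of -0.57, and for U6, 9 of 22 fell and 1 rose, with a median of -0.25. Matches to the Y RNAs, cytoplasmic partners of the Ro60 protein, were mixed: 2 rose and 2 fell of 7 for RNY1, and 5 of the 9 tested fell for RNY3. Over all small structured RNAs searched, 33 of 61 tested intervals with a match fell and 5 rose, with a median of -0.48. These 33 are 54.1% of those tested, beside the 27.2% lower among all features. The values are of whole intervals, many far longer than the match, and the reads were not placed at the match. MTHFD2P1-EPHA6 (-3.81) and LINC01372-AUTS2 (-2.17) match both U6 and the mitochondrial genome, so they are counted again below.

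The interval with the lowest value matched none of these RNAs. MIR3143-PRSS16 (chr6:27115468-27215501, minus strand), near the histone gene cluster of chromosome 6, had 331, 225, 231, 194, 160 and 169 input reads and 15, 4, 8, 10, 0 and 6 PSF-RIP reads. Every input library stood above every PSF-RIP library although the latter were deeper, and the interval fell by 7.07 (SE 0.24). VTRNA1-3-PCDHA1 (chr5:140105832-140165720, plus strand), which begins after the vault RNA gene VTRNA1-3, fell by 6.13 with 635 input and 39 PSF-RIP reads.

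Intervals on or matching the mitochondrial genome were lower, 7 of 8, with none higher and a median of -3.51, beside 27.2% lower and a median of 0.05 over all features. The interval beside the mitochondrial proline tRNA gene fell by 5.73 (SE 0.13, edgeR adjusted p = 7.42e-18). On chromosome 1 the pair between LOC729737 and LOC100133331 fell, with differences of -4.79 (chr1:564390-567704) and -4.77 (chr1:567794-621095). Reads on mitochondrial genes moved the same way between the assays, as given above, and their part in these values was not tested. Intervals that hold a ribosomal protein pseudogene were lower in 41 of 83 tested (49.4%) and higher in 13 (15.7%), beside 27.2% lower and 30.1% higher over all features, with a median of -0.40 that stayed below 0 under the other scalings (-0.14 and -0.13).

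At the other end, 12 intervals were named for the largest increases in PSF-RIP. Those described here held under 500 input reads and entered through PSF-RIP, where they are high, so their increases are given with no test. COX20-HNRNPU (chr1:245008366-245013601, minus strand) begins after the last exon of HNRNPU, which encodes a nuclear RNA-binding scaffold protein. It had 20.8, 15, 19.9, 21, 4.3 and 8.55 CPM in the inputs and 51.3, 41.6, 71.1, 47.9, 35.1 and 22.0 CPM in PSF-RIP. All PSF-RIP libraries stood above all inputs, and the difference was 1.57 (SE 0.15), beside 0.63 for HNRNPU and -1.40 for COX20. GALNT9-FBRSL1 (chr12:132908162-133067156, minus strand), divergent from FBRSL1, stood at 1.5 (SE 0.13) but held only 2.54 to 4.36 CPM in any 22Rv1 library. ZDHHC11-BRD9 (chr5:851102-863849, minus strand) stood at 1.58, beside 1.42 for its 5′ gene BRD9, a chromatin remodelling subunit.

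Several of these values rest on few input reads. NOXO1-GFER, on 29 input and 634 PSF-RIP reads, stood at 2.27 (SE 0.26). ZNF330-IL15 (chr4:142253772-142557748, plus strand) has the highest value, 2.83 (SE 0.45), on 0, 23, 74, 2, 0 and 0 input reads against 268, 223, 760, 434, 581 and 869 PSF-RIP reads. Its pair values ran from 1.12 to 7.60, and 3 of its 6 inputs held no read. The other members of this group were RABL6-C9orf172 (1.79), C10orf90-DOCK1 (1.72), LHX4-ACBD6 (1.66), RASA1-CCNH (1.60), FAM41C-LOC100130417 (1.57), FSCN2-FAAP100 (1.47) and SNORA40-TAF1D (1.45), on 52 to 124 input reads each.

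Among intervals next to nuclear noncoding RNAs, 2 of 8 rose and 4 fell, beside 30.1% higher and 27.2% lower over all features, with a median of -0.22 that turned to 0.02 and 0.04 under the other scalings. MORC2-TUG1 (chr22:31364274-31365196, minus strand), divergent from the noncoding RNA TUG1, stood at 1.32 (SE 0.23) on 45 input and 533 PSF-RIP reads, while TUG1 itself stood at -0.33. CWC22-SCHLAP1, divergent from the prostate cancer noncoding RNA SCHLAP1, rose by 0.45, and SCHLAP1-UBE2E3 on its downstream side fell by 0.34. NEAT1-MALAT1 (chr11:65213010-65265232, plus strand) begins after NEAT1 and ends before MALAT1, a nuclear speckle RNA. It fell by 1.10 (SE 0.18, edgeR adjusted p = 2.6e-05), beside -0.93 for NEAT1 and 1.30 for MALAT1. HOXC12-HOTAIR, at -0.10, did not pass the test.

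Length and position gave small differences. Members under 10 kb had a median of 0.08, those of 10 to 100 kb -0.10 and those of 100 kb or more -0.04, and the last 2 turned positive under both other scalings. Divergent members had a median of 0.05, with 121 higher and 131 lower of 445 tested (27.2 and 29.4%), and sense downstream members a median of -0.08, with 174 higher and 246 lower of 777 (22.4 and 31.7%). Over all features 30.1% were higher and 27.2% lower, so the divergent members lay close to that split.

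The second comparison asked how DHT changed the intervals over the 3 lines. In these bulk libraries, more expressing cells and more RNA per cell cannot be told apart. In input, 5 of 1368 members rose with DHT and 1 fell by edgeR's quasi-likelihood test, 0.439% of the members beside 0.485% of all features, of which 0.36% rose and 0.124% fell. All 6 begin after a gene end on their own strand. The single decrease, OPRK1-ATP6V1H (-1.24, SE 0.22, edgeR adjusted p = 0.0305), was lower in LNCaP and LTAD and held 0 and 2 reads in 22Rv1. Leaving out any 1 of the 6 inputs gave 0 to 3 members called, with 0 without LTAD DHT, 1 without LTAD vehicle, 2 without LNCaP vehicle, LNCaP DHT or 22Rv1 DHT, and 3 without 22Rv1 vehicle, not all of which are among the 6. With intergenic intervals fitted alone the split was 6 and 3, with no filter, for the same members, 13 and 9, and with DESeq2 6 and 0.

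ZBTB16-NNMT (chr11:114121398-114166534, plus strand), downstream of the androgen- and glucocorticoid-induced transcription factor gene ZBTB16, gave the largest increase. Its input levels with vehicle were 15.8, 52.9 and 37.7 CPM in LNCaP, 22Rv1 and LTAD, and with DHT they were 143, 155 and 217 CPM. In PSF-RIP the same libraries held 21.6, 84.2 and 37.7 CPM with vehicle and 155, 210 and 221 CPM with DHT. The groups did not overlap in either assay, and the interval rose by 2.28 in input (SE 0.33, edgeR adjusted p = 0.00892) and by 2.2 in PSF-RIP (SE 0.27, edgeR adjusted p = 0.00138). ZBTB16 exons stood at 1.54 in input (edgeR adjusted p = 0.051) and rose by 1.99 in PSF-RIP.

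SSX2IP-LPAR3 (chr1:85156241-85279085, minus strand), downstream of the lysophosphatidic acid receptor LPAR3, rose from 38.7, 52.9 and 16.1 CPM to 70.0, 121 and 94.1 CPM in input, by 1.38 (SE 0.23, edgeR adjusted p = 0.0227). ACSL3-KCNE4 (chr2:223808120-223916647, plus strand) follows ACSL3, an androgen-induced fatty acid ligase, and rose by 1.10 (SE 0.21, edgeR adjusted p = 0.0497), with 1.05 to 1.11 in the 3 lines. In both intervals every DHT input stood above every vehicle input. WHAMM-HOMER2 (chr15:83503614-83517728, minus strand) rose by 1.04 beside 1.31 for HOMER2, and ALOX15B-ALOX12B (chr17:7952452-7975953, plus strand), downstream of the lipoxygenase ALOX15B, rose by 0.88, from 242, 48.5 and 199 CPM to 486, 103 and 296 CPM. In these the groups overlapped because the lines start at different levels, while each line rose. The call in input was lost in 11 alternatives for ACSL3-KCNE4, 10 for WHAMM-HOMER2 and 7 for ALOX15B-ALOX12B. For SSX2IP-LPAR3 and ZBTB16-NNMT it was lost in 5 each.

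In PSF-RIP libraries 20 members rose with DHT and 28 fell by edgeR's quasi-likelihood test, 3.51% of those tested beside 2.32% of all features, of which 1.28% rose and 1.04% fell. The balance was 32 and 22 with intergenic intervals alone and 14 and 13 with DESeq2. Leaving out 1 library left between 13 and 27 calls for the PSF-RIP libraries and the 22Rv1 inputs: 23 without LNCaP vehicle, 24 without LNCaP DHT, 14 without 22Rv1 vehicle, 13 without 22Rv1 DHT and 14 without either LTAD library in PSF-RIP, and 27 and 26 without the 22Rv1 vehicle and DHT inputs. Without the line 22Rv1 8 calls were left, without LTAD 15 and without LNCaP 36.

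ELK4-SLC45A3 (chr1:205602001-205626980, minus strand) had the largest increase in PSF-RIP. It lies between the end of SLC45A3, an androgen-induced prostate transporter, and ELK4, an ETS factor gene with which SLC45A3 forms a known read-through transcript in prostate cancer. Its PSF-RIP levels were 2.31, 23.0 and 1.51 CPM with vehicle in LNCaP, 22Rv1 and LTAD and 24.4, 69.2 and 21.5 CPM with DHT. The vehicle level of 22Rv1 lay above the DHT level of LTAD, so the groups overlapped, although each line rose. The interval rose by 2.49 (SE 0.32, edgeR adjusted p = 0.00182) beside 2.35 for SLC45A3 and 0.83 for ELK4. In input it stood at 1.90 (SE 0.46, edgeR adjusted p = 0.127).

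TRIM69-TERB2, which holds SORD2P, a pseudogene of the sorbitol dehydrogenase gene SORD, rose by 1.22 in PSF-RIP (SE 0.2, edgeR adjusted p = 0.00947). Among decreases, LOC102724913-CBLN2 (chr18:69449463-70203914, minus strand) fell by 1.37 (SE 0.17, edgeR adjusted p = 0.00138), in each line by 1.22 to 1.32, beside -0.78 for CBLN2. OPRK1-ATP6V1H fell by 1.47 (SE 0.19, edgeR adjusted p = 0.00153), although DESeq2 gave 0.422, and PXN-SIRT4, the U4 interval, fell by 1.31 (SE 0.28, edgeR adjusted p = 0.032). The call was lost in 7 alternatives for PXN-SIRT4 and in 3 each for LOC102724913-CBLN2 and TRIM69-TERB2. These include leaving out 22Rv1 for PXN-SIRT4 and LOC102724913-CBLN2, and leaving out LTAD for TRIM69-TERB2.

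**Figure D3:**
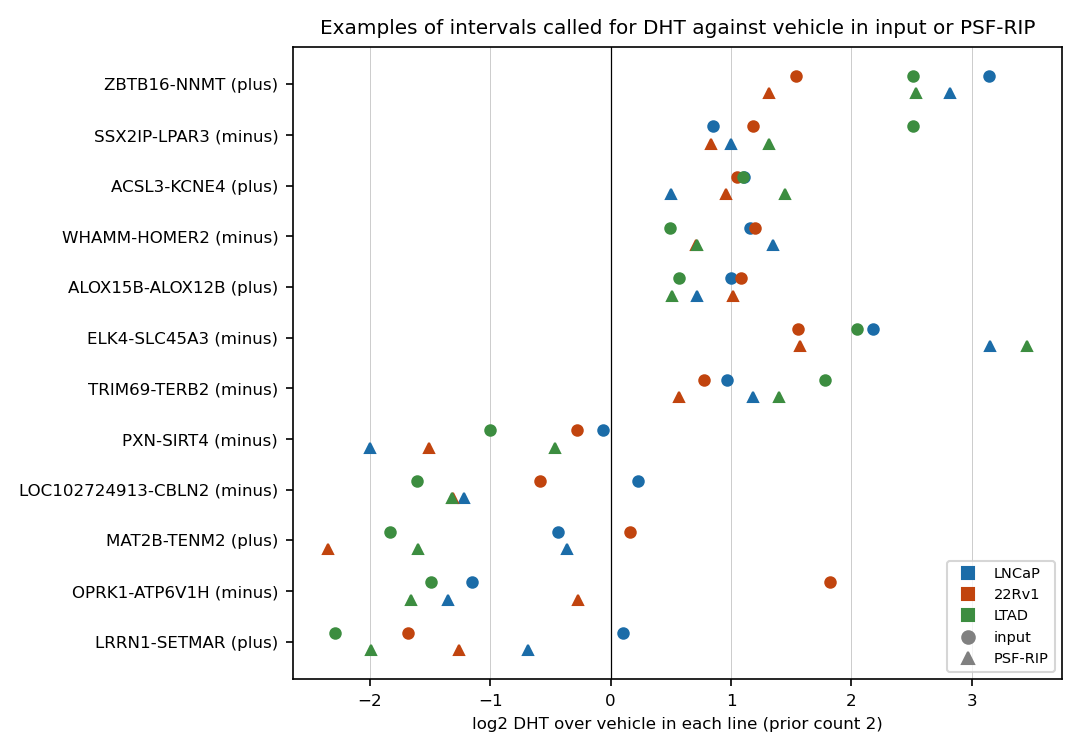
DHT against vehicle for examples of the named intervals, as the log2 difference in each of the 3 lines (colour) for input (circles) and PSF-RIP (triangles), with a prior count of 2. ZBTB16-NNMT lies above 1 in every line and both assays, and ELK4-SLC45A3 in PSF-RIP ranges from 1.57 in 22Rv1 to 3.46 in LTAD.

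Of 12 intervals next to a list of androgen-induced genes, 3 rose with DHT in input and 5 in PSF-RIP, and none fell. Over all features 0.36% rose in input and 1.28% in PSF-RIP. This list and the androgen-repressed list were chosen with earlier results of these data known, so their counts and medians are a description. ZBTB16-NNMT is counted here through its 3′ gene NNMT, since ZBTB16 is not on the list. The 12 had a median of 1.07 in input and 0.72 in PSF-RIP, beside -0.01 and -0.04 for all features and -0.07 and -0.13 for all tested members. ABCC4-DZIP1, divergent from the transporter gene ABCC4, rose by 1.07 in PSF-RIP (SE 0.25, edgeR adjusted p = 0.0494), and KLKP1-KLK4, after the kallikrein gene KLK4, stood at 1.14 in input and 0.82 in PSF-RIP without passing. Of 9 intervals next to androgen-repressed genes, 1 fell in input, and 2 rose and 2 fell in PSF-RIP, where 1.28% of all features rose and 1.04% fell. CPNE4-ACPP, 1 of those that rose (0.66, SE 0.15, edgeR adjusted p = 0.0491), is divergent from its 5′ gene CPNE4, while the listed gene ACPP on its 3′ side stood at -1.34. LRRN1-SETMAR on the plus strand, which follows the repressed gene LRRN1 (-1.68), fell by 1.59 (SE 0.38, edgeR adjusted p = 0.05 after rounding). This call was lost in 10 alternatives, with an adjusted p from 0.0531 to 0.498: by DESeq2, with its size factors in edgeR, and without single libraries or lines of 22Rv1 or LTAD. TRIM49B-FOLH1, which follows the folate hydrolase gene FOLH1, stood at -0.83 and did not pass.

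The third comparison set the 3 lines side by side, each line being represented by its vehicle and its DHT library. In input, 320 members were higher and 391 lower in 22Rv1 than in LNCaP by edgeR's quasi-likelihood test, 52.0% beside 46.5% of all features. Between LTAD and LNCaP, 17 were higher and 101 lower in LTAD, 8.63% beside 7.73% of all features (2.92% higher and 4.81% lower). Between 22Rv1 and LTAD, 358 were higher and 308 lower in 22Rv1, 48.7% beside 43.7%. LNCaP enters the first pair of comparisons, which therefore share its libraries. An interval could enter the members through the reads of a line where it is high, so differences of members between lines are a description. The smaller difference between LTAD and LNCaP depended on single libraries, with 27 calls left without LNCaP vehicle, 35 without LNCaP DHT, 22 without LTAD vehicle and 29 without LTAD DHT, and with intergenic intervals alone the split was 29 higher and 60 lower.

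In PSF-RIP, edgeR called 482 members higher and 434 lower in 22Rv1 than in LNCaP (67.0% beside 59.0%), 92 higher and 247 lower in LTAD than in LNCaP (24.8% beside 20.6%, with 8.37% of all features higher and 12.2% lower), and 547 higher and 387 lower in 22Rv1 than in LTAD (68.3% beside 61.1%, with 33.6% of all features higher and 27.5% lower). The LTAD and LNCaP count fell from 339 to 143 without LNCaP vehicle, 169 without LTAD vehicle and 217 without LTAD DHT, and DESeq2 gave 193. Its split was 153 and 166 with no filter and 144 and 191 with intergenic intervals alone.

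KLHL1-DACH1, 1 of the 10 most read intervals, set 22Rv1 apart from LNCaP and LTAD. Its input reads were 1351 and 979 in LNCaP, 3 and 2 in 22Rv1, and 481 and 528 in LTAD, for vehicle and DHT. In PSF-RIP they were 4617 and 2685, 21 and 3, and 4020 and 2650. No 22Rv1 library came near the others, and the interval was lower in 22Rv1 than in LNCaP by 9.13 in input (-9.13, SE 0.29, edgeR adjusted p = 4.65e-09) and by 8.86 in PSF-RIP (-8.86, SE 0.25, edgeR adjusted p = 7.22e-10). LTAD was lower than LNCaP in input (-0.90, edgeR adjusted p = 0.00607).

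Several members had no read in a 22Rv1 input, so only a minimum fold can be given, reckoned as if that group had held 3 reads. DSC3-DSC2 (chr18:28622782-28645939, plus strand), between the desmosomal cadherin genes DSC3 and DSC2, had 115 input reads in LNCaP and 0 in 22Rv1, at least 46.4-fold lower, and 383 against 0 in PSF-RIP, at least 180-fold lower. LOC100506371-RPH3AL was at least 32.3-fold lower in 22Rv1 input, DDX20-KCND3 at least 27.5-fold, GRK1-LINC00552 at least 26.3-fold and FAS-LIPA at least 23.0-fold. The 5′ gene was also called lower in 22Rv1 by edgeR at 4 of these, with an adjusted p of 3.32e-06 for DSC3, 3.81e-05 for RPH3AL, 0.000606 for the potassium channel KCND3 and 0.000193 for GRK1. Their fitted folds are not given, since the 22Rv1 inputs held no read of these genes. FAS-LIPA differed, since LIPA stood at -0.14 (edgeR adjusted p = 0.607) and FAS at 0.95 (edgeR adjusted p = 0.0991). MIR221-LOC401585 (chrX:45606531-45707508, minus strand), on the upstream side of the microRNA gene MIR221, had 0 reads in 22Rv1 PSF-RIP against 270 in LNCaP and 662 in LTAD, at least 127-fold and 183-fold lower.

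Intervals high in 22Rv1 included LOC102724913-CBLN2, at 162 and 107 CPM in 22Rv1 inputs against 3.58 and 4.29 in LNCaP and 7.53 and 2.14 in LTAD. All 4 other inputs lay far below 22Rv1. The difference from LNCaP was 5.08 in input (SE 0.27) and 7.02 in PSF-RIP (SE 0.23), beside 2.47 and 2.90 for its 5′ gene CBLN2, a synaptic organiser. Its input reads were 463 in 22Rv1, 11 in LNCaP and 10 in LTAD. The reads of the line where it is high thus helped to choose it, and these differences are a description. NEDD1-RMST had 134 input reads in 22Rv1 against 3 in LNCaP, a ratio of 36.9 (exact 95% interval 12.3 to 181, counting error only). The ratio was 46.2 (7.96 to 1860) for GTSE1-TRMU and 22.7 (5.99 to 192) for MIEF2-TOP3A. In PSF-RIP, LOC102724265-CCND1, upstream of the cyclin D1 gene CCND1, was higher in 22Rv1 than in LNCaP by 4.88, and CCND1 by 2.65.

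DCAF4L2-MMP16 marked LTAD. This interval follows MMP16, a membrane-type metalloproteinase gene, and held 214 and 147 input reads in LNCaP, 244 and 141 in 22Rv1 and 0 and 0 in LTAD. LTAD was at least 100-fold lower than LNCaP and at least 88.4-fold lower than 22Rv1 in input, and in PSF-RIP it was lower than LNCaP by 8.55 (-8.55, SE 0.29, edgeR adjusted p = 4.41e-08). MMP16 itself stood at -8.19 in that comparison, and MMP16-LOC101929709 on the divergent side at -4.54. BCHE-ZBBX (chr3:165555261-166616470, plus strand), divergent from the butyrylcholinesterase gene BCHE, had 350 input reads in LNCaP and 3 in LTAD, a ratio of 97.4 (exact 95% interval 33.0 to 474, counting error only), and 22Rv1 was as low, with 2 and 4 reads. Increases in LTAD over LNCaP were smaller. LOC392232-TERF1 was higher by 3.16 in input (SE 0.45, edgeR adjusted p = 0.00172) and by 2.81 in PSF-RIP, and UBE2E3-LOC101927156 by 2.80, beside 2.35 for the ubiquitin-conjugating enzyme gene UBE2E3.

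The mitochondrial-like pair on chromosome 1 moved in opposite directions between lines. Input reads of the upstream interval were 904 and 967 in LNCaP, 174 and 165 in 22Rv1 and 759 and 883 in LTAD, lower in 22Rv1 by 2.74 than in LNCaP (-2.74, SE 0.22, edgeR adjusted p = 1.77e-06). The downstream interval had 1276 and 1131, 3567 and 2159, and 888 and 1218 reads, higher in 22Rv1 by 0.94 (SE 0.15, edgeR adjusted p = 0.00039). All 5 intervals that match RN7SK were higher in 22Rv1 than in LNCaP in input, with a median of 1.06. Over all features 22.4% were higher, with a median of -0.05. Reads of near-identical copies can be placed at either copy, so these intervals are not independent measurements.

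**Figure D4:**
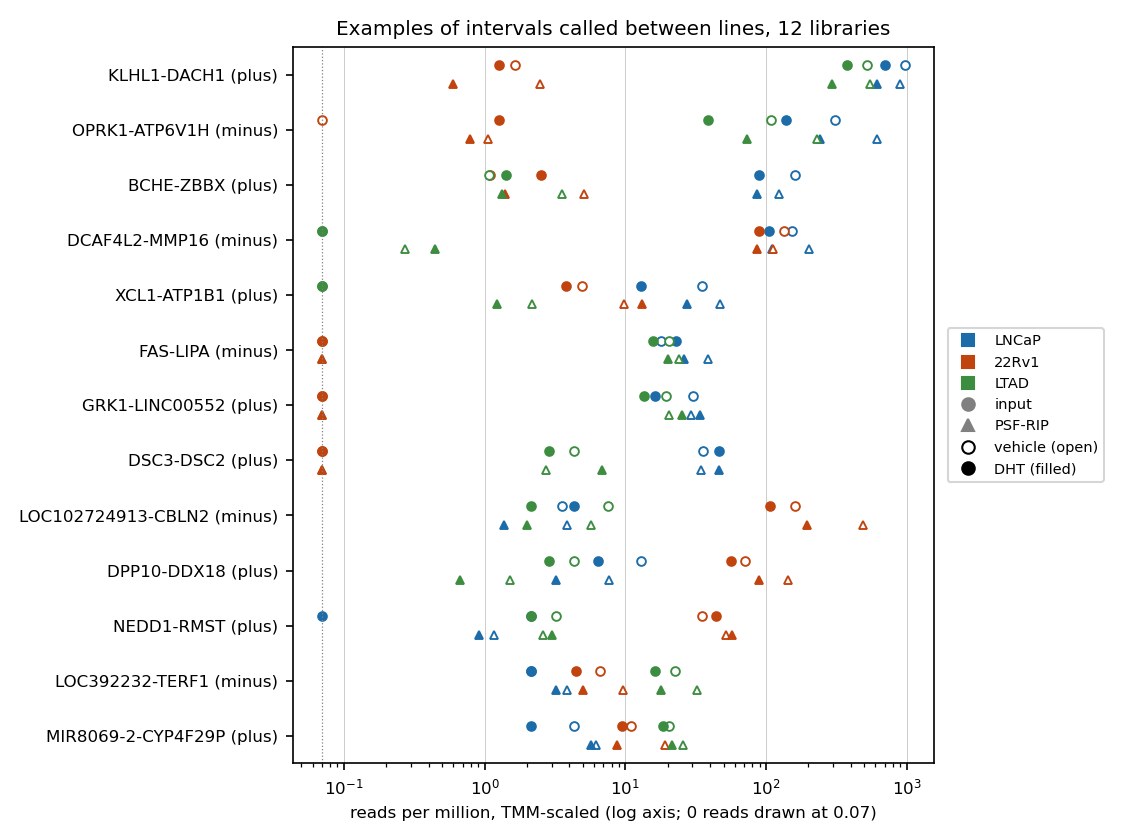
Level of intervals called between lines in each of the 12 libraries, in CPM on a log axis, with libraries without a read drawn at 0.07. Circles are inputs, triangles PSF-RIP, open symbols vehicle, filled symbols DHT. KLHL1-DACH1 is low in the 4 libraries of 22Rv1, LOC102724913-CBLN2 is high in them, and DCAF4L2-MMP16 has no read in the 2 LTAD inputs.

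By position, 239 of 777 sense downstream members were higher and 165 lower in 22Rv1 than in LNCaP input (30.8 and 21.2%), with a median of 0.24. Of 445 divergent members, 52 were higher and 192 lower (11.7 and 43.1%), with a median of -0.58. Over all features 22.4% were higher and 24.1% lower, with a median of -0.05, and the difference between the classes was not tested. Against LTAD the medians were 0.34 and -0.34, and LTAD against LNCaP gave -0.14 and -0.22. In PSF-RIP the medians for 22Rv1 against LNCaP were 0.37 and -0.47.

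The gap between PSF-RIP and input was itself compared across lines with an interaction term. No member was called for 22Rv1 or LTAD against LNCaP by edgeR's quasi-likelihood test, beside 0.0% of all features, and 167 and 81 members had an unadjusted p under 0.05. DESeq2 called 3 and 0. With the line-treatment pair as a block, 85 members were called for 22Rv1, 70 of them higher, and 14 for LTAD. Shares over all features under DESeq2 and the block are not given, so these counts describe the members alone.

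The values of sense downstream intervals moved with those of the gene before them. Over 649 such intervals with a tested 5′ gene, Pearson's r between interval and gene was 0.45 for PSF-RIP against input, 0.43 and 0.64 for DHT in input and PSF-RIP, and 0.65 for 22Rv1 against LNCaP in input. Over 338 divergent intervals it was 0.22, 0.26, 0.34 and 0.37. These are descriptions across intervals that share libraries and scaling, and intervals are not replicates. Of 207 sense downstream intervals higher in 22Rv1 than in LNCaP, the 5′ gene was called higher at 112 and lower at 14, and of 134 lower ones it was lower at 73 and higher at 15. Among the 165 divergent intervals lower in 22Rv1, the gene was lower at 56 and higher at 31. Over all features 22.4% were higher and 24.1% lower in this comparison. In PSF-RIP against input, the gene was called higher at 80 and lower at 19 of the 140 sense downstream intervals that were higher. Over all features 30.1% were higher and 27.2% lower in that comparison. COX20-HNRNPU and NEAT1-MALAT1 stood apart from the genes on their 3′ side, COX20 and MALAT1. MORC2-TUG1 stood apart from TUG1, from which it is divergent.

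**Figure D5:**
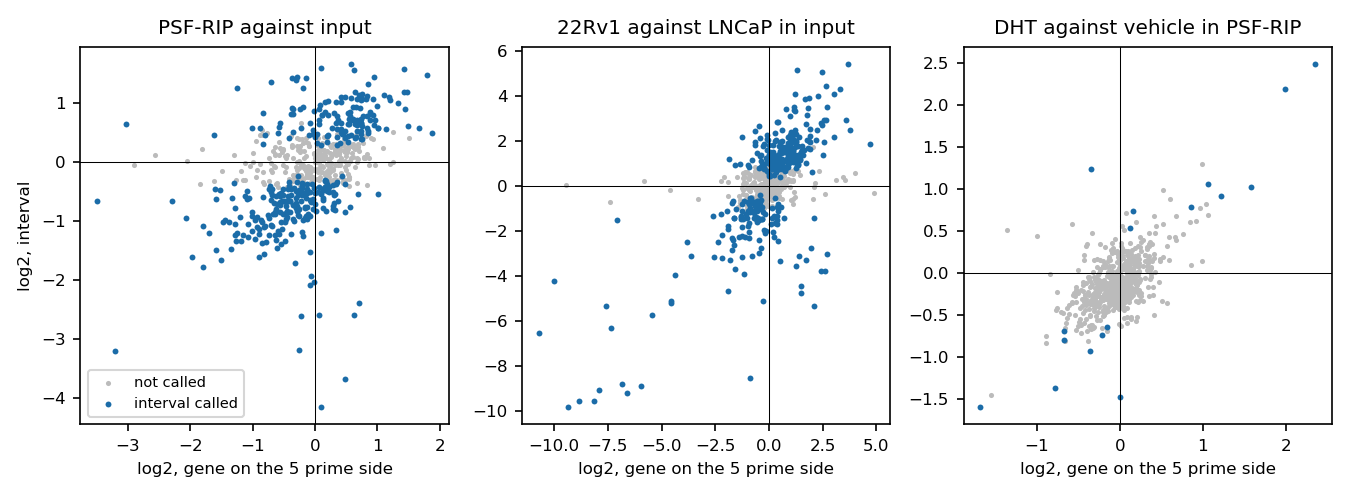
Log2 difference of 649 sense downstream intervals (vertical) against that of the gene before them (horizontal), in 3 panels for PSF-RIP against input, 22Rv1 against LNCaP in input and DHT against vehicle in PSF-RIP, with called intervals in blue. The points follow the diagonal loosely, with Pearson's r of 0.45, 0.65 and 0.64.

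CLIP in LNCaP gave a separate readout of PSF at the same loci. The 4 lists are a vehicle and a DHT list in each of 2 sets, and 40.2, 40.3, 20.9 and 32.6% of the 1354 member loci held at least 1 peak in LNCaP vehicle set 1, DHT set 1, vehicle set 2 and DHT set 2. Over all 18999 intergenic loci the shares were 12.5, 13.4, 10.8 and 16.6%. Members are chosen by reads, and long intervals hold more peaks. Per megabase the members held 5.45, 5.19, 5.05 and 3.15 peaks, against 3.56, 3.59, 2.71 and 3.01 over all loci. Within length classes, 26.4% of member loci under 10 kb held a peak in some list against 6.49% of other loci, 56.3% against 30.2% at 10 to 100 kb, and 83.9% against 69.1% at 100 kb or more. Members were chosen for high read counts, so their RNA was abundant, and the part of that in the peak shares was not tested. The median difference between PSF-RIP and input was -0.03 for members without a peak, -0.07 with peaks in 1 to 3 lists and 0.01 for the 171 members with peaks in all 4.

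KLHL1-DACH1 held 15, 18, 4 and 7 peaks in the 4 lists, and all 4 shared the stretch chr13:70990022-70990854, where the highest peak score by the authors was 1258.13. ELK4-SLC45A3 had a stretch shared by 3 lists (chr1:205607436-205608481, highest score 446.05) and ZBTB16-NNMT a stretch shared by 2 lists (chr11:114149802-114150476, highest score 158.36). The 150 bases printed above from these stretches were 62.0, 71.3 and 67.3% purine, with 2, 4 and 5 runs of at least 8 purines. At the centres of all peaks inside members, read on the member's strand, the median purine share was 60% in both lists of set 1 and 50 and 55.3% in the vehicle and DHT lists of set 2. Windows of the same length 2000 bases to either side had medians of 50, 50, 49.3 and 50.7%. A purine run of at least 8 bases was present in 61.9 and 57.3% of peak-centre windows of set 1 against 46.0 and 44.3% beside them, but in 44.2 and 38.7% of those of set 2 against 48.6 and 44.8% beside them.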

How the data were processed

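The authors deposited, per the file headers, uniquely mapped read counts for RefSeq transcripts and intergenic intervals of each strand on hg19. The submitters' processing notes name TopHat2 2.1.0, Bowtie2 2.2.6 and Bowtie on hg19 and GRCh37, with roles not given in the sources used here. The deposited CLIP lists hold MACS peaks with the peak caller's score, per the file contents, 1 list per library and no strand. A further 12 columns of counts, a second LNCaP set whose column names and labels disagree, were not used.

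Counts of gene sense exons (1 transcript per gene) and of all intergenic intervals formed 1 table. Low features were filtered with filterByExpr, libraries were TMM-scaled, and edgeR 4.0.16 quasi-likelihood tests (R 4.3.3, limma 3.58.1) were run on 16098 features with Benjamini-Hochberg adjustment at 0.05. PSF-RIP was compared with input after line and treatment (7 residual degrees of freedom). DHT and lines were compared in 1 model of all 12 libraries (4 residual degrees of freedom), with DHT terms for each assay. Values per line or pair are differences of log2 CPM with a prior count of 2. For a group without reads the fold was reckoned as if it held 3 reads, and exact intervals cover counting error at 95%. Shares of reads are given with no test, since the same reads chose the members. Matches were found with BLAST+ 2.17.0 on GRCh37 at 85% identity over 60% of an RNA, and at 90% over 100 bases for mitochondrial sequence. Nuclear ribosomal RNA was not among the sequences searched, so members that match it were not counted. The fits were tested on simulated data with known folds.

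Named intervals are the 10 with most reads, the called intervals with the same sign in every pair, line or treatment with the 12 (PSF-RIP) or 5 (other comparisons) highest and lowest values, those at the threshold, and those next to genes of an androgen-induced, an androgen-repressed and a nuclear noncoding RNA list. Some named items are not reported here. Intervals matching small RNAs and OPRK1-ATP6V1H in input were named after their values were seen. The members and lists were chosen with earlier results of these data known. Same-numbered pairs come from the labels (input and PSF-RIP of 1 line and treatment). Their deviations, with 1 value per line, correlated at 0.23 in LNCaP, 0.19 in 22Rv1 and 0.28 in LTAD. The pairs give the values per pair, but the main fits held no term for the pair, which entered only as an alternative. Alternatives were read thresholds of 250 and 1000, no filter, intergenic intervals alone, DESeq2 1.42.0 or its size factors, the pair as a block, and leaving out libraries or lines.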

Additional observations from a re-analysis of the deposited data

Results flagged for a closer look

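Log2 PSF-RIP over input stood apart in 1 of 6 pairs for ZDHHC11-BRD9 on the minus strand, with 2.17 in LNCaP DHT against 1.29 to 1.60 in the other pairs. COX20-HNRNPU on the minus strand stood at 2.89 in LTAD vehicle against 1.17 to 1.81 in the others, on 4 input reads. In 31 such checks, chance alone would set apart about 1 in 20.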

How the results depend on the processing

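All 479 alternative values of the 24 intervals named for PSF-RIP against input kept their direction and call, as did those for 22Rv1 against LNCaP in both assays and for 22Rv1 against LTAD in PSF-RIP. The named intervals were picked from these same data as called extremes with the same sign throughout. Kept calls were therefore likely, and they are a description. No named value reversed in the alternatives run, but DHT calls were lost in 38 of 95 (input) and 46 of 190 (PSF-RIP) values, and 18 of 160, 8 of 160 and 2 of 160 were lost for LTAD against LNCaP in input, 22Rv1 against LTAD in input and LTAD against LNCaP in PSF-RIP. The cause was not tested. Shares over all features under the alternatives are not given, so the percentages called that follow describe the members alone. Members called for DHT in input (0.439%) were 0.228% at a threshold of 250 reads, 1.08% at 1000 and 1.7% with no filter. For DHT in PSF-RIP (3.51%) the same settings gave 2.16%, 5.38% and 6.65%, and DESeq2 1.97%. DESeq2 called 14.1% for LTAD against LNCaP in PSF-RIP. For the difference in enrichment of 22Rv1, 1.63% were called with no filter, 0.804% with intergenic intervals alone and 0.219% by DESeq2, and for LTAD 0.636% with no filter. With the replicate block of line-treatment pairs these were 6.21% and 1.02%, while PSF-RIP against input gave 363 higher and 451 lower under the pairing. Leaving out 1 library or line gave 47.1 to 53.8% for PSF-RIP against input, 0.0 to 0.585% and 0.593 to 3.34% for DHT in input and PSF-RIP, 35.6 to 52.3%, 1.6 to 8.35% and 32.8 to 49.0% for 22Rv1 against LNCaP, LTAD against LNCaP and 22Rv1 against LTAD in input, 52.9 to 67.9%, 10.5 to 24.9% and 52.2 to 69.0% for the same in PSF-RIP, and 0.0 to 0.219% and 0.0 to 0.0727% for enrichment in 22Rv1 and LTAD. The difference in read share ran from -6.82 to -5.5 percentage points without 1 line. With a peak score of 100 or more, 24.9, 21.3, 4.58 and 8.35% of member loci held a CLIP peak, in the order of lists used above. Over all intergenic loci the shares at this score were 7.08, 6.31, 1.61 and 2.83%. Depth limits the inputs, where the median member had 168 reads over 6 libraries.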
